A study of Mus musculus with 31 samples.

Results

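Brain-derived neurotrophic factor (Bdnf), its receptor TrkB (Ntrk2), and Sh2b1, Adcy3, Mrap2, Negr1 and Tub were examined in the mouse hypothalamus as 7 genes, chosen by name from the 54532 in the count table because each is tied to body weight. All are from C57BL/6J mice, an inbred strain, with no engineered allele. OB offspring had dams on an obesogenic diet, high in fat and in sugar, during pregnancy and lactation, and CON offspring had dams on a control diet. OB females gave 7 libraries, CON females 8, OB males 8 and CON males 8. All groups were weaned to chow on postnatal day 21, and from 3 months of age all received obesogenic food themselves during 4 weeks. All were studied at 4 months, so no group stayed on chow throughout. Neither animals nor litters are named in the labels, and p-values measure only the spread between these libraries, which may in part be technical. The tissue is bulk hypothalamus, in which fewer cells of a type and less RNA per cell cannot be told apart.

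BDNF is a secreted neurotrophin that binds TrkB, a tyrosine kinase receptor which signals through the MAP kinase, PI3 kinase and phospholipase C pathways to CREB and early response genes. In the hypothalamus BDNF is known as a signal that suppresses feeding downstream of melanocortin receptors, and loss of either gene causes overeating and obesity in mice and humans. Neurons carry the full-length kinase receptor, while a truncated TrkB without the kinase is the main form in astrocytes. The other genes meet the same circuits. SH2B1 is an adaptor that binds JAK2 at the leptin receptor and also couples to insulin and Trk receptors. Adenylyl cyclase 3 makes cyclic AMP in the primary cilium of neurons, and MRAP2 is an accessory protein of the melanocortin receptor MC4R and of other G-protein-coupled receptors. NEGR1 is a cell adhesion molecule of the IgLON family, and TUB, lost in tubby mice with adult-onset obesity, carries receptors into the cilium.

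Library totals were 23118626 to 38547288 read pairs, so that 1 pair was worth 0.0259 to 0.0433 CPM, the unit of level, in which each library is scaled to 1 common total. Bdnf, the gene with the fewest pairs at the median, had 286 to 1053 of them per library, and Ntrk2 had 24346 to 55391. 2 libraries, labelled CON female 7 and CON male 7, had sex-linked genes that went against their labels and were left in the labelled groups. 3 others, CON female 5, CON male 6 and OB female 3, stood apart, with median correlations with the rest of 0.910, 0.914 and 0.936. In CON female 5 the summed level of 18 hypothalamic marker genes was 178 CPM, 13 of them with reads, against 1351 to 3777 CPM in the other 30 libraries. Its 12 cortical and hippocampal markers summed to 1058 CPM, against 169.9 to 319 CPM in the others, and its 12 olfactory bulb markers to 3008 CPM, against 421 to 663 CPM. Its 8 thalamic markers summed to 836 CPM, against 528 to 748 CPM, and its 7 pituitary markers had no reads. The markers of CON female 5 thus go against its tissue label, which bears on every value from all 31 libraries. The titles of OB female 1 and OB male 1 hold 2 numbers each, and the labels do not say whether these are pooled animals. Log2 fold changes and correlations of the 7 genes are given with all 31 libraries and with the 26 left without CON female 5 and 7, CON male 6 and 7 and OB female 3, unless one set is named.

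The annotation places Bdnf (ENSMUSG00000048482) on chromosome 2 of GRCm38, from 109674700 to 109727007 on the plus strand, Ntrk2 (ENSMUSG00000055254) on chromosome 13 from 58806569 to 59133970, and Sh2b1 (ENSMUSG00000030733) on chromosome 7 from 126466994 to 126475424 on the minus strand. Adcy3 (ENSMUSG00000020654) lies on chromosome 12 from 4133103 to 4213525, Mrap2 (ENSMUSG00000042761) on chromosome 9 from 87144306 to 87184045, Negr1 (ENSMUSG00000040037) on chromosome 3 from 156561794 to 157316445 and Tub (ENSMUSG00000031028) on chromosome 7 from 108950338 to 109034460. Exons of Bdnf, Adcy3 and Tub overlap exons of other genes on the opposite strand (Gm45346 for Bdnf, Cenpo for Adcy3, Gm26599 and Ric3 for Tub), and the authors counted pairs by strand. Each value sums all transcripts of its gene. Transcripts were taken from a GENCODE annotation, a separate source from the Ensembl annotation used for the counts. For Ntrk2 it has 7 coding transcripts, 2 encoding a product of 821 residues and 5 encoding products of 466 to 492 residues, so the full-length and truncated receptors were counted together. Bdnf has 11 transcripts from 9 distinct starts in the same source, which the counts likewise do not separate.

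Start regions are shown for Bdnf and Adcy3, the only pair of the 7 genes that varied together with and without the 5 libraries. Of 7 listed Bdnf regions the 1 shown was picked because it holds the element marked below, so its match was fixed beforehand. For Adcy3 the first of 2 listed regions is shown. Each region shown is the 250 bases before an annotated start, on the plus strand, from RefSeq (GRCm38.p6), with any cyclic AMP response element searched for in capitals: chr2:109692186-109692435 for Bdnf and chr12:4133147-4133396 for Adcy3.
Bdnf: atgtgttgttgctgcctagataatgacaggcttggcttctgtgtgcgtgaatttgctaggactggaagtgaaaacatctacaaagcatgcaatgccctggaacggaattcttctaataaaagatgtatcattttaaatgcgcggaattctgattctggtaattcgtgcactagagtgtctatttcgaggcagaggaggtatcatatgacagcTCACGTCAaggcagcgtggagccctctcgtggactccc
Adcy3: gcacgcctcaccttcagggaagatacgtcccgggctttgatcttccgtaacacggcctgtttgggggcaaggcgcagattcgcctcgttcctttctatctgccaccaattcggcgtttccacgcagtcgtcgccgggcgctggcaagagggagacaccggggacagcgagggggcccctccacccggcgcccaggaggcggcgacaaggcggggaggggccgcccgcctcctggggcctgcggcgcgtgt
The capitals mark TCACGTCA, a form of the element bound by CREB and related factors, which begins 38 bases before the Bdnf start. Among 32851 start regions of this length it was found, on either strand, in 0.350%. Of the 15 regions listed for the 7 genes, 7 of them for Bdnf, it was in this 1 alone, and the palindrome TGACGTCA, present in 1.55% of all regions, was in none. The shorter element TGACG, which lies within both longer forms, was found in 2 of the 15, this Bdnf region and 1 of Sh2b1, against 17.8% of all regions. These are matches of letters in windows and no measure of binding.

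Per length of exon, Ntrk2 was the most abundant of the 7, with a median of 64.0 RPKM, which is CPM divided by the exon length, over 31 libraries, and Bdnf the least, with 3.38 RPKM. Between them lay Tub at 31.5, Mrap2 at 22.5, Negr1 at 19.9, Sh2b1 at 17.3 and Adcy3 at 13.3 RPKM. Ntrk2 was above Tub, Sh2b1 above Adcy3, and Adcy3 above Bdnf in 31 of 31 libraries, and Tub was above Mrap2 in 29. Mrap2 exceeded Negr1 in 24 of 31 libraries and Negr1 exceeded Sh2b1 in 23, so the order of these neighbours was not the same in every library. The level of Ntrk2 is that of receptor RNA in all cell types of the tissue together.

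The spread between libraries of a group also set the genes apart. Sh2b1 had a biological coefficient of variation of 11.2%, lower than all but 5.22% of the genes tested. Mrap2 had 35.5% and Bdnf 26.98%, and without the 5 libraries these were 15.1% and 21.02%. Tub had 20.3% with all libraries and 8.98% without the 5, when only 6.14% of genes varied less. Ntrk2, Adcy3 and Negr1 lay at 18.2%, 15.1% and 14.3% with all libraries.

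**Figure D1:**
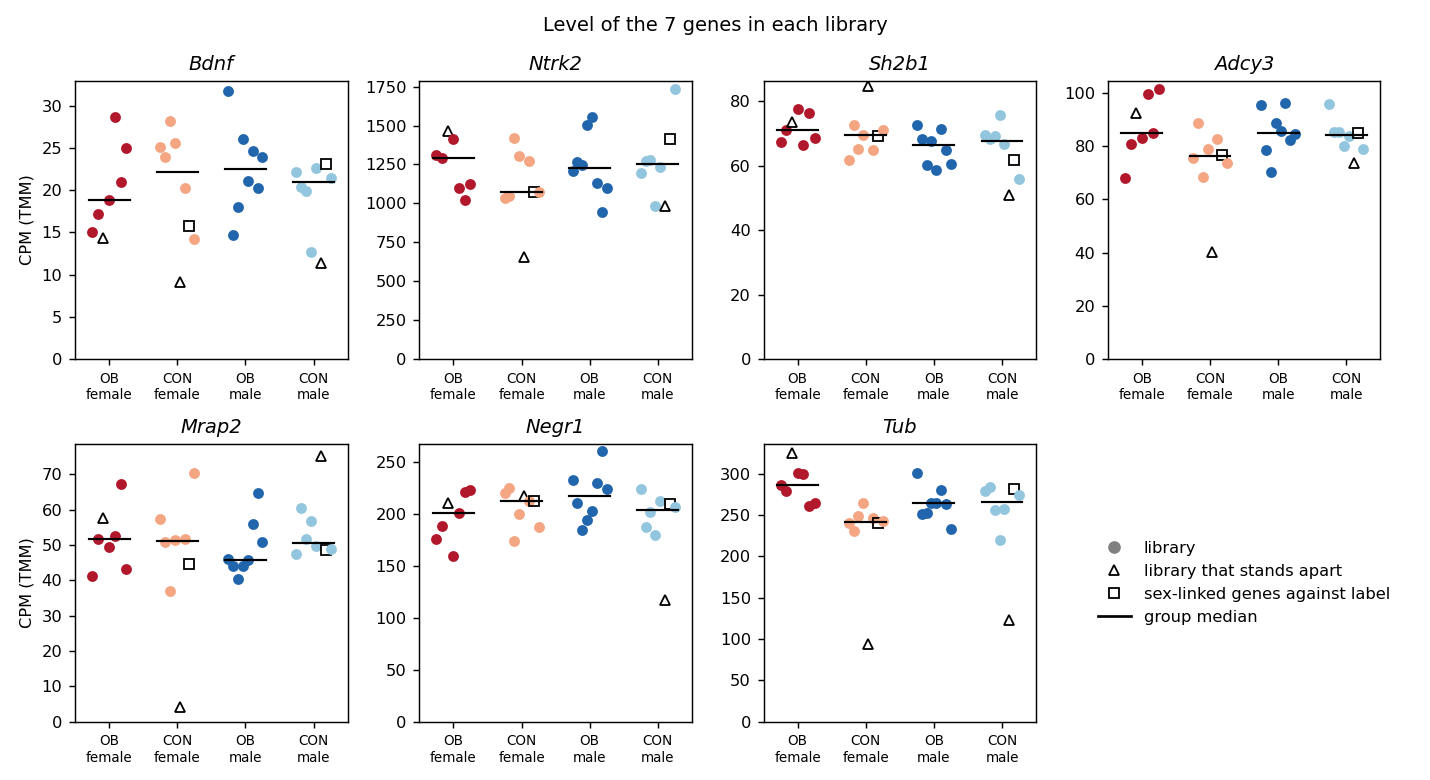
CPM scaled with TMM factors (linear axes from 0) of each gene in each library, by maternal diet (OB, CON) and sex, with a bar at the group median; open triangles are the 3 libraries that stand apart and open squares the 2 whose sex-linked genes go against the label. CON female 5 is the lowest library for Bdnf, Ntrk2, Adcy3, Mrap2 and Tub, and 6 of the 7 OB females lie above every CON female for Tub.

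None of the 7 genes passed in daughters. OB females were compared with CON females by edgeR's quasi-likelihood test, which called 0 of 18743 genes (0%) at a Benjamini-Hochberg adjusted p under 0.05, with 1522 genes at an unadjusted p under 0.05. 5 of the 7 had positive log2 fold changes of OB over CON, with a median of 0.17, against 47.5% of all genes and a median of -0.013. Without the 5 libraries 4 of the 7 were positive, with a median of 0.021, and edgeR again called 0 of 18694 genes (0%).

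Tub stood furthest from zero. The lowest, median and highest levels were 261.6, 287 and 325 CPM in OB females, against 94.6, 242 and 264.3 CPM in CON females. Every OB female lay above the CON female mean and 6 of 7 lay above every CON female, but the groups overlapped. The log2 fold change was 0.35 ± 0.15 (SE; 95% interval 0.051 to 0.65), with an adjusted p of 0.569 by edgeR. It was 0.24 ± 0.11 without CON female 5 alone and 0.090 ± 0.050 with 2 surrogate variables in the fit (adjusted p = 0.701 and 0.710). CON female 5, at 94.6 CPM, was far below the other 7 CON females, the next being at 231 CPM. Without the 5 libraries Tub averaged 282 ± 16.9 CPM in 6 OB females and 245.7 ± 11.02 CPM in 6 CON females (SD), and 5 of 6 OB females were above every CON female. The log2 fold change was then 0.20 ± 0.067, a ratio of 1.15 (95% interval 1.04 to 1.26), with an unadjusted p of 0.00550 and an edgeR adjusted p of 0.543.

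Adcy3, the cyclase of the neuronal cilium, came next. Its lowest, median and highest levels were 68.1, 84.7 and 101 CPM in OB females, against 40.2, 76.1 and 88.7 CPM in CON females. 6 of 7 OB females were above the CON female mean, 3 of them above every CON female, and the lowest OB female was below 7 of 8 CON females. The log2 fold change was 0.25 ± 0.11 (edgeR adjusted p = 0.579). CON female 5 was again the lowest library, and without the 5 libraries the value was 0.14 ± 0.085 (adjusted p = 0.657).

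The 95% intervals of the ligand and its receptor both included zero in daughters. Bdnf had 14.3, 18.9 and 28.7 CPM (lowest, median, highest) in OB females, against 9.11, 22.1 and 28.2 CPM in CON females. The ranges overlapped almost wholly, and the log2 fold change was -0.018 ± 0.20, with a 95% interval of -0.43 to 0.39 that covers both signs. Ntrk2 had 1023, 1289 and 1464 CPM in OB females, against 658, 1071 and 1420 CPM in CON females, a log2 fold change of 0.17 ± 0.13 (95% interval -0.098 to 0.43). Without the 5 libraries these were -0.13 ± 0.18 for Bdnf and 0.021 ± 0.12 for Ntrk2.

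The adaptor gene Sh2b1 had 66.4, 71.0 and 77.6 CPM in OB females, against 61.9, 69.3 and 84.5 CPM in CON females, the highest value being that of CON female 5. Its log2 fold change was 0.035 ± 0.077, with a 95% interval of -0.12 to 0.19, and 0.079 ± 0.070 without the 5 libraries. Negr1 had 159.7, 201 and 223 CPM in OB females, against 174, 213 and 225 CPM in CON females, with a log2 fold change of -0.065 ± 0.10, and -0.061 ± 0.087 without the 5.

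Mrap2, the melanocortin receptor accessory gene, was decided by 1 library. It had 41.3, 51.8 and 67.1 CPM in OB females, against 4.16, 51.1 and 70.3 CPM in CON females, and the 4.16 CPM were those of CON female 5. The other 7 CON females lay between 36.8 and 70.3 CPM, a range that holds all OB females. The log2 fold change was 0.18 ± 0.27 with all libraries and -0.060 ± 0.12 without the 5. In CON female 5 the summed hypothalamic markers were low as well, as given above; their part in these values was not tested.

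None of the 7 genes passed in sons. OB males were compared with CON males in the same edgeR fit, which called 0 of 18743 genes (0%), with 647 at an unadjusted p under 0.05, and 0 of 18694 (0%) without the 5 libraries. 5 of the 7 genes again had positive log2 fold changes, with a median of 0.030, against 50.1% of all genes and a median of 0.00038. All 7 had adjusted p of 0.940 or more by edgeR.

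Bdnf and Negr1 had the largest positive values in sons. Bdnf had 14.7, 22.6 and 31.8 CPM (lowest, median, highest) in OB males, against 11.4, 20.9 and 23.1 CPM in CON males. 4 of 8 OB males lay above every CON male, and 2 of 8 below the CON male mean. The log2 fold change was 0.23 ± 0.19, and 0.18 ± 0.17 without the 5 libraries. Negr1 had 185, 217 and 260.5 CPM in OB males, against 117, 204 and 224 CPM in CON males. 7 of 8 OB males were above the CON male mean, which CON male 6, at 117 CPM, pulled down. The log2 fold change of Negr1 was 0.18 ± 0.097 (unadjusted p = 0.0777), and 0.11 ± 0.081 without the 5 libraries.

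Mrap2 went the other way. It had 40.3, 45.9 and 64.7 CPM in OB males, against 47.4, 50.6 and 75.1 CPM in CON males, and 5 of 8 OB males lay below every CON male. The highest CON male was CON male 6, and the log2 fold change was -0.16 ± 0.26 with all libraries and -0.099 ± 0.12 without the 5. Ntrk2 had 947, 1229 and 1555 CPM in OB males, against 984, 1253 and 1732 CPM in CON males (log2 fold change -0.019 ± 0.13, and -0.042 ± 0.11 without the 5). Sh2b1 had 58.5, 66.2 and 72.5 CPM in OB males, against 50.9, 67.5 and 75.5 CPM in CON males (0.016 ± 0.075, and -0.046 ± 0.066 without the 5).

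The ciliary genes that stood highest in OB daughters did not do so in OB sons. Tub had 234, 264.3 and 301 CPM in OB males, against 123, 266.3 and 284 CPM in CON males. Its log2 fold change was 0.095 ± 0.14 with all libraries and 0.010 ± 0.063 without the 5, where the 95% interval was -0.12 to 0.14. Adcy3 had 70.2, 84.9 and 96.0 CPM in OB males, against 73.4, 84.3 and 95.9 CPM in CON males, ranges that nearly coincide, with a log2 fold change of 0.030 ± 0.10, and 0.0057 ± 0.080 without the 5.

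**Figure D2:**
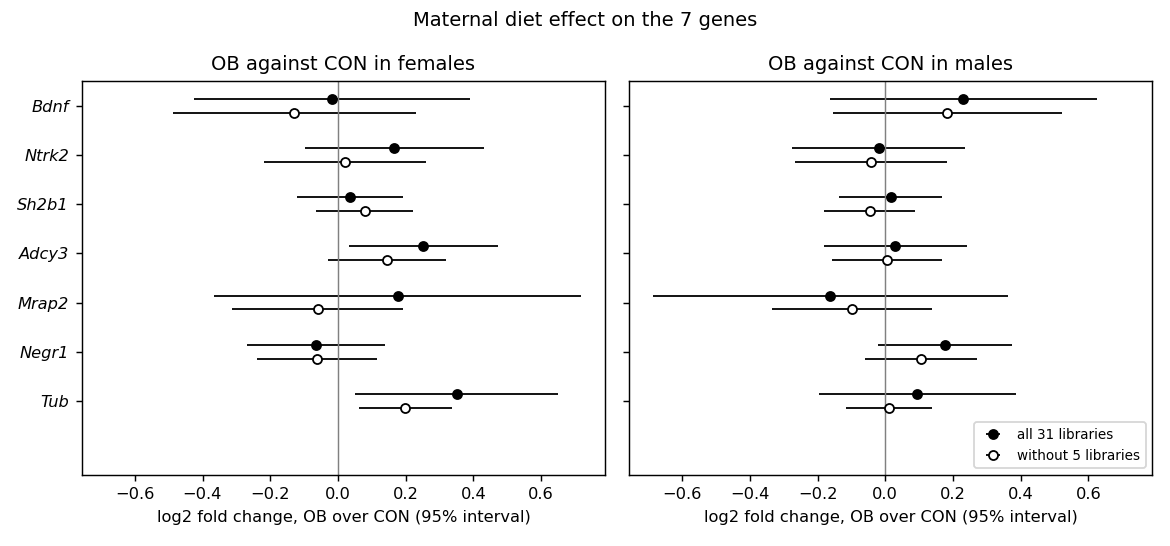
Log2 fold change of OB over CON offspring (edgeR, with 95% intervals) for each gene in females (left) and males (right), with all 31 libraries (filled) and without the 5 in doubt (open). Tub in females lies at 0.35 and 0.20, with both intervals above zero before adjustment, and no gene passed after adjustment over all genes tested.

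The difference between the sexes was itself tested, as the log2 fold change in daughters minus that in sons. edgeR called 0 of 18743 genes (0%), with 679 at an unadjusted p under 0.05, and 0 of 18694 (0%) without the 5 libraries. For Tub the difference was 0.26 ± 0.20 with all libraries and 0.19 ± 0.092 without the 5 (unadjusted p = 0.0471; edgeR adjusted p of 0.9996 with all and 0.9998 without the 5). Adcy3 had 0.22 ± 0.15 with all libraries and 0.14 ± 0.12 without the 5, and Negr1 had -0.24 ± 0.14 and -0.17 ± 0.12. For Bdnf the difference was -0.25 ± 0.28 with all libraries and -0.31 ± 0.24 without the 5, and for Ntrk2 0.19 ± 0.18 and 0.064 ± 0.16. For Mrap2 it was 0.34 ± 0.37 with all libraries and 0.039 ± 0.17 without the 5, and for Sh2b1 0.019 ± 0.11 and 0.12 ± 0.097. A diet effect particular to 1 sex was therefore not shown for any of the 7. Averaged over both sexes, Tub had a log2 fold change of 0.22 ± 0.10 with all libraries and 0.10 ± 0.046 without the 5, and Adcy3 of 0.14 ± 0.075 and 0.075 ± 0.059. With all libraries 0 of the 7, like 0 of all 18743 genes (0%), passed, with 1918 genes at an unadjusted p under 0.05.

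Females and males were also compared within each maternal diet. With all libraries edgeR called 0 of 18743 genes (0%) in OB offspring and 0 (0%) in CON offspring, with 681 and 823 at an unadjusted p under 0.05. In this fit all 4 groups share 1 estimate of spread per gene, and they include the 2 libraries against their sex label. Even the sex-linked gene Xist, with 205 to 716 CPM in OB females and 0 to 0.0562 CPM in OB males, was not called. The 0 calls with all libraries therefore do not show an absence of sex differences. Without the 5 libraries, 14 genes (0.0749%) were called in OB offspring and 11 (0.0588%) in CON offspring, and none was 1 of the 7. With all libraries the smallest p of the 7 in OB offspring was that of Sh2b1, with 66.4, 71.0 and 77.6 CPM in OB females against 58.5, 66.2 and 72.5 CPM in OB males, a log2 fold change of female over male of 0.13 ± 0.077 (adjusted p = 0.99999), and 0.12 ± 0.066 without the 5. In CON offspring it was Adcy3, with -0.19 ± 0.10 (adjusted p = 0.995), CON female 5 being the lowest library, and -0.12 ± 0.085 without the 5.

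Genes around the 7 were taken from lists of their partners. Of 30 measured genes for the tubby family and ciliary trafficking, 25 were higher in OB than in CON females, with a median log2 fold change of 0.13, and 26 were higher without the 5 libraries, again with a median of 0.13. In males 19 of 30 were higher, with a median of 0.052. 0 of the 30 passed in either sex. Across all genes the share with a positive value was 47.5% in females and 50.1% in males. Ttc21b, a subunit of the retrograde transport complex of the cilium, averaged 18.3 ± 2.64 CPM in 7 OB females and 14.1 ± 1.49 CPM in 8 CON females, a log2 fold change of 0.38 ± 0.10 (edgeR adjusted p = 0.5003). Cep290, a protein of the ciliary gate, had 24.3 ± 4.08 CPM in OB females and 17.5 ± 2.73 CPM in CON females (0.47 ± 0.14, adjusted p = 0.523), and 0.30 ± 0.12 without the 5 libraries.

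On the BDNF side, 8 of 13 genes known to be induced by BDNF were higher in OB than in CON females, with a median log2 fold change of 0.058. Without the 5 libraries 12 of 13 were higher, with a median of 0.29, and in males 11 of 13, with a median of 0.21. None passed, and these genes respond to neuronal activity in general. Fos, an early response transcription factor, averaged 16.2 ± 14.1 CPM in OB females and 6.79 ± 2.98 CPM in CON females (log2 fold change 1.252 ± 0.47, edgeR adjusted p = 0.549). In males it was 9.996 ± 12.3 CPM in OB and 5.62 ± 1.24 CPM in CON offspring (0.83 ± 0.46). The SD of Fos was larger in the OB than in the CON libraries of each sex. Vgf, a secreted peptide precursor, had 191 ± 43.5 CPM in OB females and 139 ± 55.3 CPM in CON females (0.46 ± 0.18), and 0.27 ± 0.16 without the 5 libraries.

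Signal transducers of TrkB showed 19 of 30 higher in OB females (median 0.041) and 21 of 30 in OB males (median 0.047), with 0 called. Kidins220, a scaffold that binds Trk receptors, had 405 ± 23.7 CPM in OB females and 352 ± 24.8 CPM in CON females (0.20 ± 0.10, edgeR adjusted p = 0.618). Of 9 other neurotrophin and receptor genes 3 were higher in OB females (median -0.13), as were 5 of 9 for neurotrophin processing (median 0.019) and 3 of 10 regulators of Bdnf transcription (median -0.094). 1 of those regulators, Mef2c, had a log2 fold change of -1.48 ± 0.48 with all libraries and -0.0011 without the 5. In males 7 of 9, 7 of 9 and 6 of 10 of these lists were higher, and 0 genes of any of the 3 lists passed in either sex.

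The list of SH2B adaptors and their receptor partners also holds signalling genes such as Stat3, Stat5a, Stat5b, Ptpn1 and Socs3. On it, 11 of 16 genes were higher in OB females (median 0.13) and 12 of 16 in OB males (median 0.063). Stat5b, a transcription factor used by leptin and growth hormone receptors, had 85.9 ± 8.32 CPM in OB females and 73.5 ± 7.20 CPM in CON females (0.23 ± 0.079, edgeR adjusted p = 0.524), and 0.13 ± 0.062 without the 5 libraries. Socs3, the feedback inhibitor of leptin signalling, had 4.26 ± 1.49 CPM in OB females and 3.06 ± 0.636 CPM in CON females (0.48 ± 0.19, adjusted p = 0.549). Of 20 adenylyl cyclase and cyclic AMP pathway genes, 15 were higher in OB females (median 0.082) and 17 in OB males (median 0.091). The list of melanocortin receptors and other MRAP partners, which also holds Pomc, Agrp, Sim1, Mgrn1 and Atrn, had 8 of 12 higher in each sex (medians 0.16 and 0.049). The IgLON relatives of Negr1 had 2 of 4 higher in OB females and 3 of 4 in OB males, and other genes at obesity loci 11 of 28 and 19 of 28. Of the obesity locus genes, Rpgrip1l, a neighbour of Fto, had 31.3 ± 1.70 CPM in OB females and 23.6 ± 4.69 CPM in CON females (0.41 ± 0.11, adjusted p = 0.5003 by edgeR). 0 genes of these 5 lists passed in either sex. Without the 5 libraries several of these counts in females moved, to 2 of 9 for neurotrophin processing, 6 of 10 for Bdnf regulators and 15 of 28 for other obesity loci, and the melanocortin median moved to 0.039.

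Markers of other tissue parts were set beside these values. 9 meningeal fibroblast markers were lower in OB than in CON offspring in 9 of 9 cases in each sex, with medians of -0.48 in females and -0.21 in males, and 0 passed. Their summed level was 39.8 to 90.1 CPM in OB females and 43.3 to 123 CPM in CON females. In males it was 42.0 to 56.6 CPM in OB and 34.8 to 108 CPM in CON offspring, the highest being CON male 6. The sums did not all share the direction of the single markers. In females the median sum was 60.1 CPM in OB and 58.9 CPM in CON offspring, and 61.8 and 58.9 CPM without the 5 libraries. In males these medians were 49.95 and 56.5 CPM, and 49.95 and 46.98 CPM without the 5. Of 17 hypothalamic markers tested, 13 were higher in OB females and 3 in OB males, with sums of 1617 to 2305 CPM in OB females, 178 to 2068 CPM in CON females, 1351 to 2015 CPM in OB males and 1464 to 3777 CPM in CON males. Their part in the diet values of the 7 genes was not tested.

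**Figure D3:**
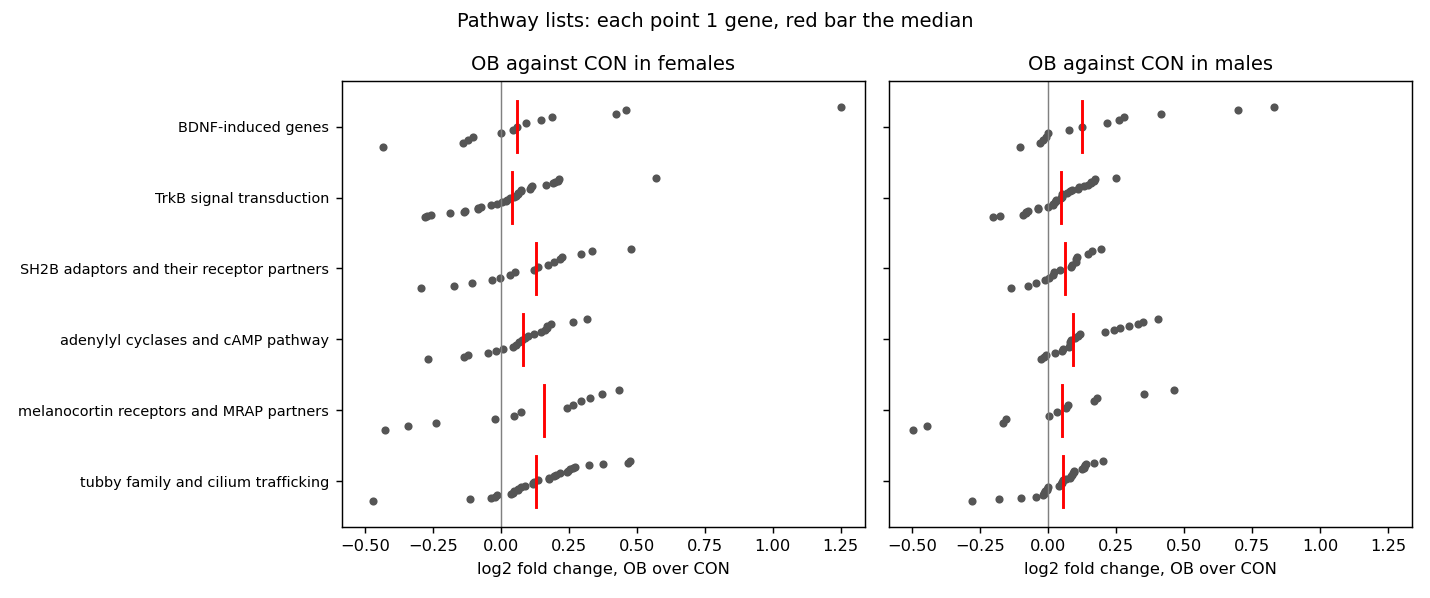
Log2 fold change of OB over CON offspring for each measured gene of 6 lists of partner genes, in females (left) and males (right), all 31 libraries, with the list median in red. The tubby and cilium list has 25 of 30 genes above zero in females and 19 of 30 in males, and no gene passed.

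Covariation across libraries was measured on log2 CPM after the group mean was removed, with the groups as labelled. In the 31 libraries these groups include the 2 libraries against their sex label. With 31 libraries 4 of the 21 pairs passed, by a two-sided permutation test within groups with Benjamini-Hochberg adjustment over the 21 pairs, and all 4 were positive. They were Adcy3 with Tub (Pearson r = 0.71, Spearman rho = 0.47, adjusted p of r = 0.00793), Bdnf with Adcy3 (r = 0.70, rho = 0.58, adjusted p = 0.00294), Ntrk2 with Tub (r = 0.69, rho = 0.55, adjusted p = 0.00294) and Bdnf with Tub (r = 0.66, rho = 0.52, adjusted p = 0.00651). The adjusted p of rho was 0.0129 or less for 3 of them and 0.0204 for Adcy3 with Tub. Without the 2 libraries farthest from the median of the first gene of each pair, r was 0.40, 0.52, 0.47 and 0.32 in the same order. CON female 5 was lowest in all 4 of these genes. Without it alone, Adcy3 with Tub had r = 0.34 (adjusted p = 0.0942) and Ntrk2 with Tub r = 0.49 (adjusted p = 0.0626), and without CON male 6 alone Adcy3 with Tub had an adjusted p of 0.0514. The largest r of the 21 pairs with 31 libraries was 0.74, of a pair that did not pass.

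With the 26 libraries 3 pairs passed, of which 1 was among the 4. Bdnf with Adcy3 had r = 0.60 (rho = 0.57, adjusted p = 0.0268), and r = 0.65 without the 2 libraries farthest from the median of Bdnf. Adcy3 with Negr1 had r = 0.59 (rho = 0.57, adjusted p = 0.0351), and 0.53 without the 2 farthest. Ntrk2 with Mrap2 had r = -0.60 (rho = -0.62, adjusted p = 0.0208) and -0.55 without the 2 farthest. With 31 libraries its r was 0.36, a change of sign that 9 of the 21 pairs had. The permutation test of rho gave an adjusted p of 0.0365 for each of these 3 pairs. When each of the 26 was left out in turn, these pairs passed 23, 17 and 25 times of 26. By group, Bdnf with Adcy3 had r = 0.95 in 6 OB females, 0.80 in 8 OB males, -0.042 in 6 CON females and 0.43 in 6 CON males; Ntrk2 with Mrap2 was negative in all 4 groups, from -0.75 to -0.41.

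Values of this size were common over the 26 libraries. Over 13639 other genes of at least 1 CPM, the middle 95% of r with Bdnf ran from -0.63 to 0.69, with Adcy3 from -0.62 to 0.66, with Mrap2 from -0.61 to 0.63 and with Ntrk2 from -0.78 to 0.78 over the 26 libraries. The 3 pairs that passed lay inside these ranges. The points share their library, so whatever varies between libraries enters each r.

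**Figure D4:**
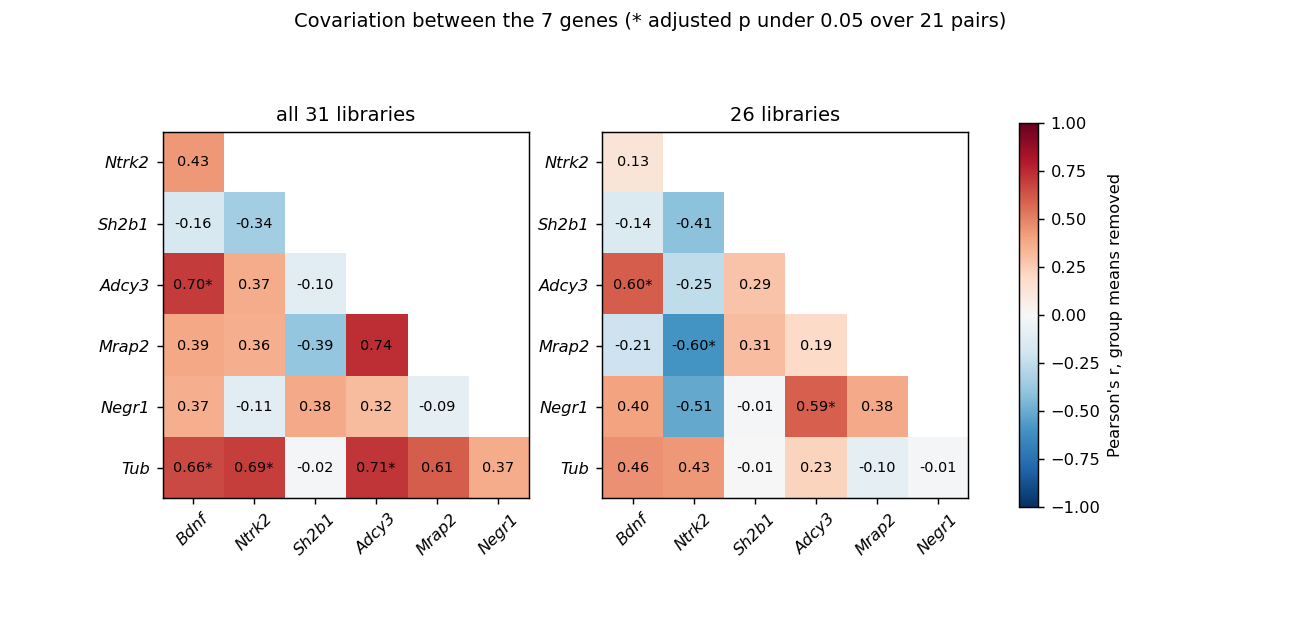
Pearson's r of log2 CPM with group means removed, for the 21 pairs of the 7 genes, in 31 libraries (left) and 26 libraries (right), with an asterisk at an adjusted p under 0.05 over the 21 pairs. 4 pairs passed with 31 libraries and 3 with 26, and Bdnf with Adcy3 is the only pair in both.

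The receptor gene varied with the summed astrocyte markers, and also with the neuronal marker Map2. Across the 26 libraries Ntrk2 had r = 0.93 (rho = 0.91) with the summed level of 10 astrocyte markers, and r = 0.84 (rho = 0.90) across all 31, with adjusted p of 4.5e-04 and 3.0e-04 by the permutation test over 91 relations of 7 genes and 13 marker lists. Without the 2 libraries farthest from the median of the marker sum r was 0.91. All 10 markers were positive singly, from 0.65 for Aldoc to 0.97 for Slc4a4, a bicarbonate transporter, with a median of 0.81. Aldoc, Gfap, S1pr1, Aldh1l1 and Aqp4 lay inside the range of -0.78 to 0.78 given above for Ntrk2, and the others above it. Over 31 libraries all 10 were positive, from 0.45 to 0.91 with a median of 0.60. The marker sum itself was 4872 to 7632 CPM in OB females, 4663 to 7521 in CON females, 4614 to 7475 in OB males and 5262 to 8144 in CON males, ranges that overlap. With 10 neuronal markers Ntrk2 had r = -0.38 (adjusted p = 0.153) over the 26, and of these only Map2 (0.96) and Nefl (0.29) were positive singly. Map2 had a larger r than every astrocyte marker but Slc4a4 over the 26.

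Negr1 had positive values with the summed neuronal markers and negative ones with the astrocyte sum. It had r = 0.77 (rho = 0.77, adjusted p = 0.00152) with the neuronal markers and -0.69 (rho = -0.70, adjusted p = 0.00400) with the astrocyte markers over the 26 libraries. It also had r = -0.71 with microglial markers (adjusted p = 0.00341). Without the 2 libraries farthest from the median of each sum these were 0.71, -0.75 and -0.68. Singly, 9 of 10 neuronal markers were positive with Negr1, from -0.40 for Map2 to 0.84 for Syt1 with a median of 0.47, and 0 of 10 astrocyte markers were, with a median of -0.55. Over 31 libraries 6 of 10 neuronal markers were positive, with a median of 0.12, and 2 of 10 astrocyte markers, with a median of -0.36. With 31 libraries r with the neuronal markers was 0.51 (rho = 0.69), CON female 5 having 9145 CPM of them against 6240 to 7706 CPM in the other 30. Adcy3 had r = 0.66 with neuronal and 0.63 with ventromedial nucleus markers over the 26 (adjusted p = 0.0102 and 0.0151 by the permutation test). CON female 5, left out of the 26, had the lowest Adcy3 (40.2 CPM), the highest neuronal sum and the lowest ventromedial sum (73.5 CPM).

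Mrap2 had r = 0.92 with the sum of 18 hypothalamic markers over 31 libraries (adjusted p = 0.00576 by the permutation test). Without the 2 libraries farthest from the median of that sum r was 0.31, so the size of r with the sum rested on those. Of these markers only Trh and Gal have single values with Mrap2 given, below, and those of the others are not given. They were picked as most like Mrap2 over the 26 libraries among 13640 genes, so they do not stand for the list. Trh is also on the olfactory bulb list. Bdnf had r = -0.61 with the sum of the 18 markers over the 26 (adjusted p = 0.0110), and -0.38 without the 2 farthest. No list passed for Sh2b1 over the 26 libraries, and over 31 it had r = -0.64 with oligodendrocyte markers (adjusted p = 0.00296). How far the makeup of the tissue piece bears on the diet values above was not tested.

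**Figure D5:**
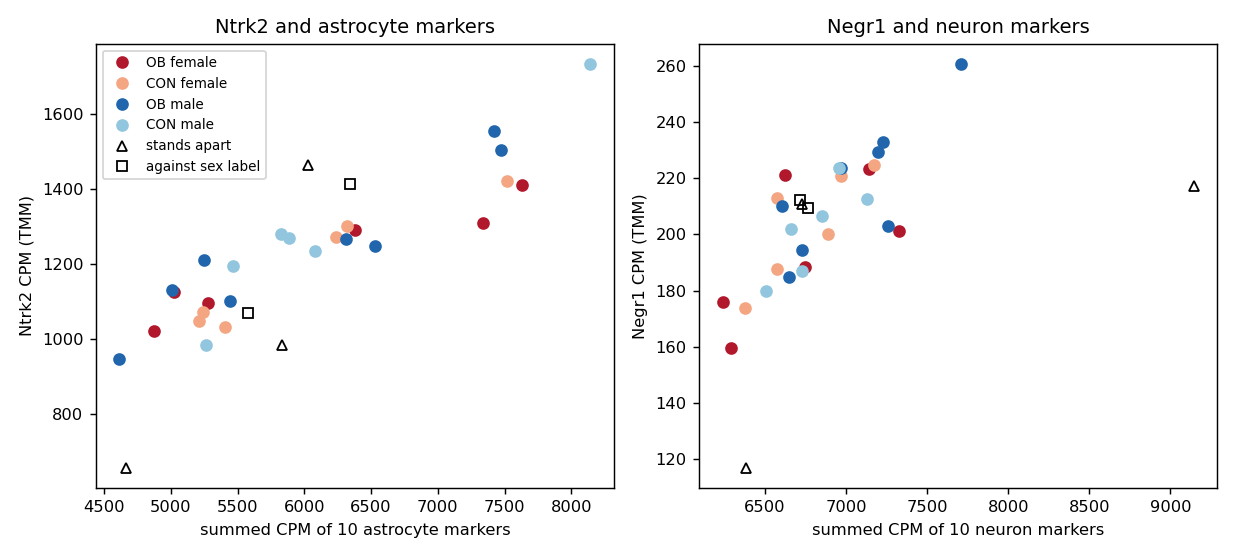
Left, Ntrk2 CPM (TMM) against the summed CPM of 10 astrocyte markers; right, Negr1 CPM (TMM) against the summed CPM of 10 neuron markers, 1 point per library, coloured by group, with libraries that stand apart as triangles and those against their sex label as squares. Both genes are higher in libraries with more of the markers, with r = 0.93 and 0.77 over 26 libraries after group means are removed.

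The genes most like each of the 7 were sought among 13640 over the 26 libraries, by r after removal of group means. For Ntrk2 these were Slc4a4 (r = 0.97), the microtubule protein gene Map2 (0.96) and Acot11, a thioesterase (0.95), with r of 0.74, 0.89 and 0.91 over 31 libraries. For Negr1 they were Smarca5, a chromatin remodelling ATPase (0.96), Tmx4 (0.94) and Kpnb1, an importin (0.94). For Bdnf they were Ube3c (0.86), Slc17a6, the vesicular glutamate transporter of excitatory hypothalamic neurons (0.85), and Cse1l (0.84). Mrap2 was most like Trh, the thyrotropin-releasing hormone gene (0.88), Dlx6 (0.83) and the galanin gene Gal (0.81), whose r over 31 libraries were 0.16, -0.32 and 0.95. Tub was most like Dusp4, a MAP kinase phosphatase (0.87), Adcy3 like Cdh4 (0.87), and Sh2b1 like Jmjd6 (0.81). Over 31 libraries these 3 values were 0.46, 0.13 and 0.039.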

How the data were processed

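Bulk RNA-seq of 31 hypothalamus libraries was analysed from 1 deposited table of gene counts. Per the file headers, the authors' counts are whole read pairs per gene from reverse-stranded featureCounts 1.6.2 with a minimum mapping quality of 10 and Ensembl GRCm38 release 94. TopHat2 2.0.13 is named in the submitters' processing notes. The exon length column, per the file headers, is in bases and served for RPKM. Symbols were matched for 54409 of 54532 genes.

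In edgeR 4.0.16 (R 4.3.3), genes were filtered by filterByExpr and scaled by TMM, and 18743 were tested by a quasi-likelihood fit with 1 mean per group, adjusted by Benjamini-Hochberg over all tested genes at 0.05. Correlations used log2 CPM (prior count 2) less the group mean, with 100000 permutations within groups. The scripts were tested on simulated data. Alternatives used DESeq2 1.42.0, limma voom 3.58.1, sva 3.50.0, other scaling and filters, and fewer libraries. The closest 2 of all 31 libraries differed by a chi-square of 7.67 per degree of freedom, so none was counted as a repeat.

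The 7 genes, the gene lists and the doubted libraries were chosen with earlier results of these data known. Named are the 7 genes, genes of smallest p in each list, and the 3 genes most like each of the 7. Depth was 23118626 to 38547288 pairs. Of the 7 genes Bdnf had the fewest pairs at the median, 645, and how far depth limits its precision was not tested.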

Additional observations from a re-analysis of the deposited data

Results flagged for a closer look

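In 28 sets of libraries, 1 for each of the 7 genes in each of the 4 groups, the highest and the lowest library were compared with the rest of their group, and 4 values stood far from the others by Dixon's criterion. Chance alone gives about 1 in 20 groups. All 4 were low values in 2 control libraries that also stand apart over all genes. In CON female 5, Adcy3 was at 40.2 CPM and Tub at 94.6 CPM. In CON male 6, Negr1 was at 117 CPM and Tub at 123 CPM. Both libraries also stood out in hypothalamic markers, which summed to 178 CPM in CON female 5, the lowest of 31, and to 3777 CPM in CON male 6, the highest. Without CON female 5 alone, the log2 fold change of OB over CON females was 0.24 for Tub and 0.17 for Adcy3, against 0.35 and 0.25 with all libraries. Without CON male 6 alone, that of OB over CON males was 0.096 for Negr1 and -0.0077 for Tub, against 0.18 and 0.095 with all libraries.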

How the results depend on the processing

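No paired analysis was possible because the labels give no replicate numbers shared between groups beyond accession order. Over all alternatives 0 of 300 values of the 7 genes passed, with adjusted p of 0.192 to 1, and 282 kept their sign. Tub in females stayed positive, from 0.090 with 2 surrogate variables to 0.36 without the 2 libraries against their sex label. The 18 that changed sign lay near zero. In females, Bdnf was 0.041 without the 2 libraries with 2 numbers in their title (OB female 1 and OB male 1) and 0.048 without OB female 3, and Mrap2 -0.00074 by voom, -0.017 without the 3 libraries that stand apart and -0.060 without the 5. In males, Ntrk2 was 0.0060 without the 2 libraries against their sex label. Sh2b1 was -0.023 with 2 surrogate variables, -0.034 without the 3, -0.046 without the 5, -0.0064 without the 2 with 2 numbers and -0.030 without CON male 6. Adcy3 was -0.0063 by voom, -0.0013 with surrogate variables and -0.0011 without the 3. Tub was -0.038 by voom, -0.0075 with surrogate variables, -0.012 without the 3 and -0.0077 without CON male 6. With each of the 3 libraries that stand apart left out alone, Bdnf in females ran from -0.12 to 0.048, Mrap2 in females from 0.0028 to 0.18, Sh2b1 in males from -0.030 to 0.016 and Tub in males from -0.0077 to 0.095. The correlation of Ntrk2 with Mrap2, 0.36 with all libraries, was -0.60 without the 5, -0.61 without them on library totals, and -0.56 to 0.42 with 1 of the 3 left out. Over all genes the count of calls was 0 in each contrast by the main edgeR fit of all 31 libraries. DESeq2 called 6 in females, 1 in males, 5 for both sexes, 6 for the difference, 12 for sex in OB and 1 for sex in CON offspring, none of them among the 7. For sex in OB offspring voom called 3, and edgeR with surrogate variables 6. edgeR called 9, 1 and 14 without the 2 against their sex label, the 3 and the 5, with 0 to 2 when 1 of the 3 was left out. For sex in CON offspring edgeR called 10 and 11 without the 2 and the 5. These causes were not tested. Single-library removals and the scaling by library totals without the 5 were chosen after seeing the data.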
